A study of Mus musculus with 2 samples.

Results

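The genes described here are 34 interferon-stimulated genes, named by symbol and looked up in the gene tables of a single-cell RNA sequencing study of liver metastases. Of these, 33 were among the 28523 genes listed for all cells, and 32 were among the 21544 genes listed for neutrophils. Mx1 was not analysed here, and Ifi44 was listed for all cells but not for neutrophils. The metastases grew from 4T1, a mammary carcinoma line that lacks the usual hormone and HER2 receptors, after injection into the spleen of female BALB/c mice aged 6 to 8 weeks, and were dissected 14 days later. In the control group (shSCR) the injected cells carried a scrambled hairpin, and in the other group (shZdhhc17) a hairpin against Zdhhc17, a palmitoyltransferase gene. Both hairpins were delivered by lentivirus with puromycin selection, so only the cancer cells carried them, and the host cells described below did not. Each group is 1 library pooled from 3 mice, so single mice cannot be told apart.

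Interferons are secreted when cells sense foreign or misplaced nucleic acid, and interferon gamma is secreted by activated lymphocytes. Type I interferons act through the Ifnar1 and Ifnar2 receptor and the factor ISGF3, which contains Stat2 and Irf9 and binds the interferon-stimulated response element (ISRE). Genes induced by interferon gamma often hold another element, the gamma-activated site (GAS). The induced proteins block viral replication, present antigen and attract lymphocytes, and neutrophils are known to express many of these genes.

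The deposited tables that were used give 2 kinds of information on these genes. The first is a flag for the 1000 most variable genes, set by the authors once over all cells and once over neutrophils. The second is a list of the 20 leading markers of each of 9 neutrophil clusters, with fold changes and the share of cells in which the gene was detected. Both were made over the libraries together. Expression per gene and cell was not analysed here, so levels by cell type or by library, a difference between shSCR and shZdhhc17, and the share of interferon-high cells in each neutrophil cluster were not computed.

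The shSCR library held 22860 cells and the shZdhhc17 library 21511, with medians of 7105 and 6732 UMIs (counted molecules) per cell. Neutrophils numbered 6594 and 4328, together 24.6% of all cells, with medians of 2464 and 1418 UMIs. The libraries shared 609 cell barcode numbers, and the number expected by chance was not computed. In the shSCR and shZdhhc17 libraries 5.69% and 5.73% of cells were labelled as doublets by the authors, and none of these was in the neutrophil table. The cells listed exceed the capture target of 15000 per group given in the labels. The authors' neutrophil label could not be checked against marker levels. The cluster markers held 12 of 13 neutrophil markers looked up, 1 of 10 monocyte and macrophage markers (Lyz2), and none from the lists of other cell types. Of all genes listed in neutrophils, 0.835% were cluster markers, so short lists may hold none. These markers compare neutrophils with each other, so they cannot show whether other cells were among them.

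Promoter sequences are shown first for genes that the authors flagged as variable and whose start lies near an ISRE. They are from RefSeq on GRCm38.p6, read 5′ to 3′ along the gene, with letters that match GAAANNGAAA on either strand in capitals. Isg15 encodes a ubiquitin-like modifier, Ifit1 an RNA-binding inhibitor of translation, Rsad2 the enzyme viperin, Gbp2 a guanylate-binding GTPase and Cxcl10 a chemokine for T cells.
Isg15: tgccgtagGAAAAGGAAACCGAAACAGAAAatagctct
Ifit1: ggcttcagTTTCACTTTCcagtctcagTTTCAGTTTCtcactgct
Rsad2: ggtccaacTTTCATTTTCagaaaaca
Gbp2: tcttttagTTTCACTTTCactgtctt
Cxcl10: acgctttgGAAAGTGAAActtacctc

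The Isg15 stretch (chr4:156200867-156200904, minus strand) holds 3 overlapping matches that begin between -78 and -66 from the start. That of Ifit1 (chr19:34640777-34640821, plus strand) holds 2 matches, at -104 and -85. Rsad2 (chr12:26456555-26456580, minus strand), Gbp2 (chr3:142620596-142620621, plus strand) and Cxcl10 (chr5:92349085-92349110, minus strand) hold 1 match each, at -120, -59 and -213.

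Across all cells, 15 of the 33 listed interferon-stimulated genes (45.5%) were among the most variable genes, where 3.51% of all listed genes were. Across neutrophils, 20 of 32 (62.5%) carried the flag, where 4.64% of all listed genes did. A flag says that a gene varied more between cells than most genes did, and gives neither the level nor the cells in which it was high. The genes were chosen with results of these data known, so these shares describe the chosen genes only.

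**Figure D1:**
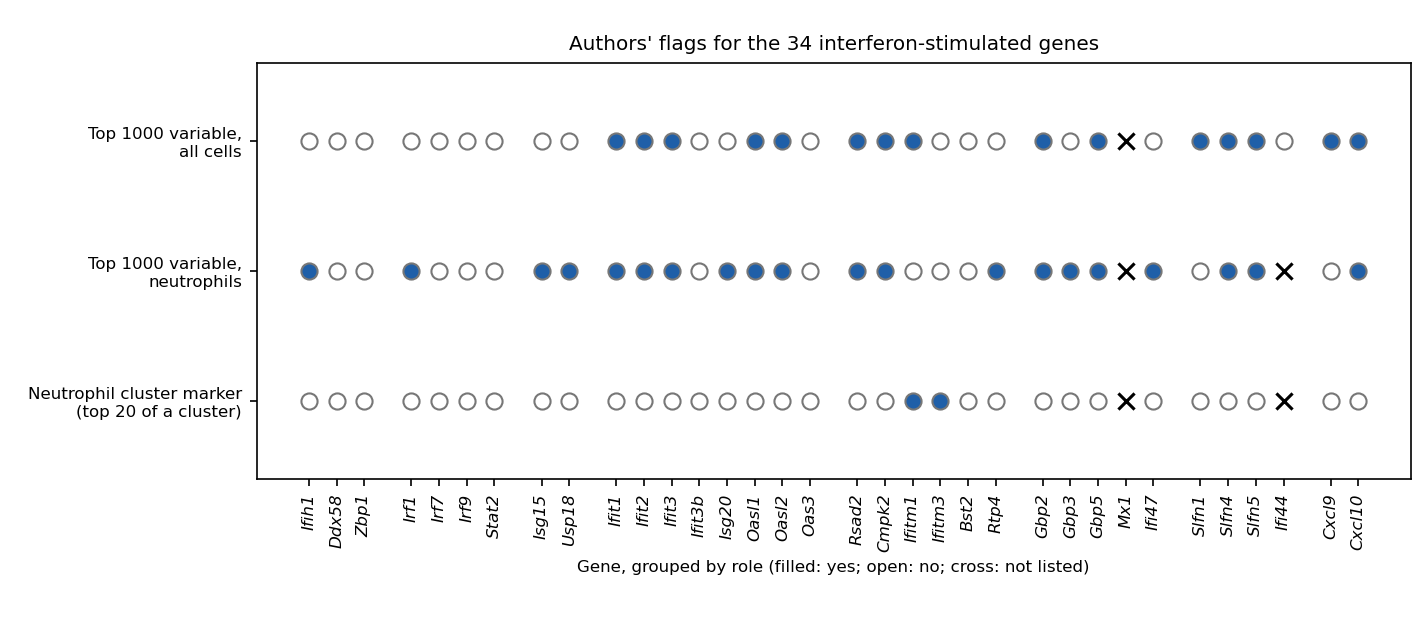
Each column is 1 of the 34 genes, grouped by role, and each row is 1 of the authors' flags. Filled circles mean yes, open circles no, and crosses that the gene was not listed. Flags over neutrophils (20 genes) outnumber those over all cells (15), and the row of cluster markers is filled only for Ifitm1 and Ifitm3.

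At the head of the pathway are 3 sensor genes and 4 transcription factor genes. Of each group 1 gene was flagged over neutrophils and none over all cells, where 4.64% and 3.51% of all listed genes were. Ifih1 encodes MDA5, a sensor of long double-stranded RNA, and was variable among neutrophils but not among all cells. Ddx58, which encodes the RNA sensor RIG-I, and Zbp1, a sensor of Z-form nucleic acid, carried neither flag. Among the transcription factor genes, Irf1 was variable among neutrophils only. Irf7, the main amplifier of type I interferon production, and Irf9 and Stat2, subunits of ISGF3, carried neither flag.

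The effectors, which make up most of the 34 genes, carried most flags. Both genes of the ubiquitin-like system, Isg15 and Usp18, which encodes the protease that removes the Isg15 protein, were variable among neutrophils and not among all cells. Of 8 genes for RNA-binding proteins, nucleases and oligoadenylate synthetase proteins, 5 were variable among all cells and 6 among neutrophils. Ifit1, Ifit2, Ifit3, Oasl1 and Oasl2 carried both flags. Isg20, an exonuclease gene, was variable among neutrophils only, and Ifit3b and the oligoadenylate synthetase gene Oas3 carried neither.

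Among 6 genes for membrane proteins and enzymes, Rsad2 and its neighbour Cmpk2, a nucleotide kinase gene, carried both flags. Rtp4 was variable among neutrophils only. Ifitm1, which encodes a small membrane protein that hinders virus entry, was variable among all cells and not among neutrophils. Its relative Ifitm3 and Bst2, which encodes tetherin, a protein that holds budding virus at the cell surface, carried neither flag.

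All 4 listed GTPase genes were variable among neutrophils, namely Gbp2, Gbp3, Gbp5 and Ifi47, which encodes an immunity-related GTPase. Gbp2 and Gbp5 were also variable among all cells. The Schlafen genes Slfn4 and Slfn5 carried both flags, and Slfn1, known for restraining T cell growth, was flagged over all cells only. Ifi44 was not variable among all cells. Both chemokine genes, Cxcl9 and Cxcl10, whose products attract T cells through Cxcr3, were variable among all cells, and only Cxcl10 of the pair was variable among neutrophils.

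Over the 32 genes listed in both tables, 12 carried both flags. These were 80% of the 15 flagged over all cells and 60% of the 20 flagged over neutrophils. For all 21544 genes in both tables, 383 carried both, which is 47.6% of the 805 flagged over all cells and 38.3% of the 1000 flagged over neutrophils. A further 8 interferon-stimulated genes were flagged over neutrophils only, 3 over all cells only, and 9 over neither. The neutrophils are part of all cells, so the flags are not independent.

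The rest of the pathway was taken from 5 lists of 141 genes, of which 125 were listed for all cells. Of all listed genes, 3.51% were flagged over all cells and 4.64% over neutrophils, so short lists may hold few or no flags. None of 4 listed interferon ligand genes (Ifnb1, Ifne, Ifnk and Ifng) was flagged over all cells, and none of the 3 listed in neutrophils was flagged there. Among receptor and signal transduction genes, Irf4, a lymphoid and dendritic cell factor, was variable among all cells. The receptor genes Ifnar1, Ifnar2, Ifngr1, Ifngr2, Ifnlr1 and Il10rb, the kinase genes Jak1, Jak2 and Tyk2, and Stat3, Irf2 and Irf8 were listed in both tables and flagged in neither. Of 9 listed negative regulators only Socs3, a feedback inhibitor of cytokine receptors, was flagged, and that over neutrophils. Among 14 sensors and adaptors listed in neutrophils, Tlr4, Tlr7, Nod2 and Aim2 were flagged there (28.6%), and none of 16 was over all cells.

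The last list holds other interferon-induced genes. Of 77 listed in neutrophils, 16 (20.8%) were variable there, and of 82 listed for all cells, 6 (7.32%) were. Gbp2b, Ddx60, Ifitm6 and Cd274, which encodes PD-L1, carried both flags. Among neutrophils the others were the GTPase genes Gbp7, Gbp9, Irgm1, Irgm2 and Igtp, and Ifi27l2a, Parp14, Trim30c, Herc6, Ly6e, Slfn8 and Tor3a. Igtp and Irgm2 overlap on the same strand of chromosome 11, as Gbp9 does with Gbp8 and Gbp4 on chromosome 5, so their counts may not be separate. Iigp1 and Ccl5 were variable among all cells and not listed in neutrophils. No test was made between the lists, and the level of each gene, which bears on whether it can be flagged, was not known.

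**Figure D2:**
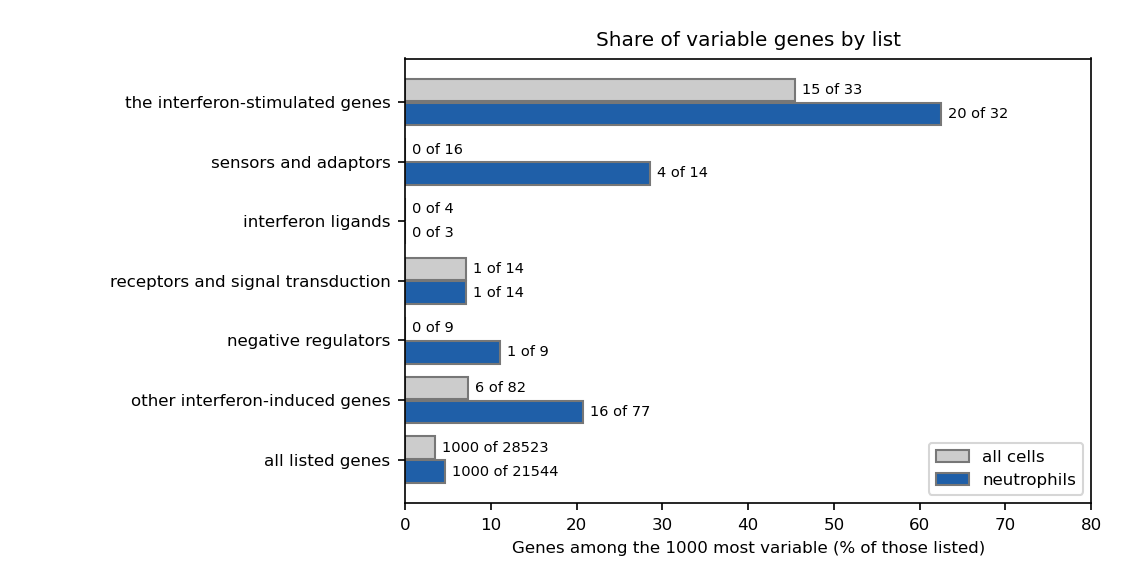
Bars give the percent of listed genes that are among the 1000 most variable, in grey over all cells and in blue over neutrophils, with the counts beside them. The interferon-stimulated genes reach 45.5% and 62.5%, the other interferon-induced genes 7.32% and 20.8%, and all listed genes 3.51% and 4.64%.

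Many of these genes are neighbours on a chromosome, by GENCODE M21 on GRCm38. With a limit of 200 kb between neighbours, 7 runs were found. The longest list of genes is on chromosome 19 (34550694 to 34650009), where Ifit2, Ifit3, Ifit3b and Ifit1 lie within 99.3 kb. Of these, 3 carried both flags and Ifit3b neither, and the other coding genes between them, Ifit1bl1 and Ifit1bl2, were not variable among neutrophils. Gbp5, Gbp3 and Gbp2 lie on chromosome 3 (142493978 to 142638008), and all 3 were variable among neutrophils, as were the other coding genes between them, Gbp7 and Gbp2b. Slfn5, Slfn1 and Slfn4 lie on chromosome 11 (82951349 to 83190216), all 3 variable among all cells and 2 among neutrophils, and of the coding genes between them Slfn8 was variable among neutrophils while Slfn9 and Slfn2 were not.

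The pairs were mixed. Oasl2 and Oasl1 on chromosome 5 (114896936 to 114937915) and Rsad2 and Cmpk2 on chromosome 12 (26442746 to 26479837) carried both flags in each gene. Cxcl9 and Cxcl10 on chromosome 5 (92321347 to 92348889) differed over neutrophils. Ifitm1 and Ifitm3 on chromosome 7 (140967221 to 141010770) differed over all cells. Counting each run and each lone gene once, and a run as flagged when any of its genes was, 7 of 22 (31.8%) were flagged over all cells and 13 of 21 (61.9%) over neutrophils. The 7 over all cells were the 7 runs, and no background was computed for runs.

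**Figure D3:**
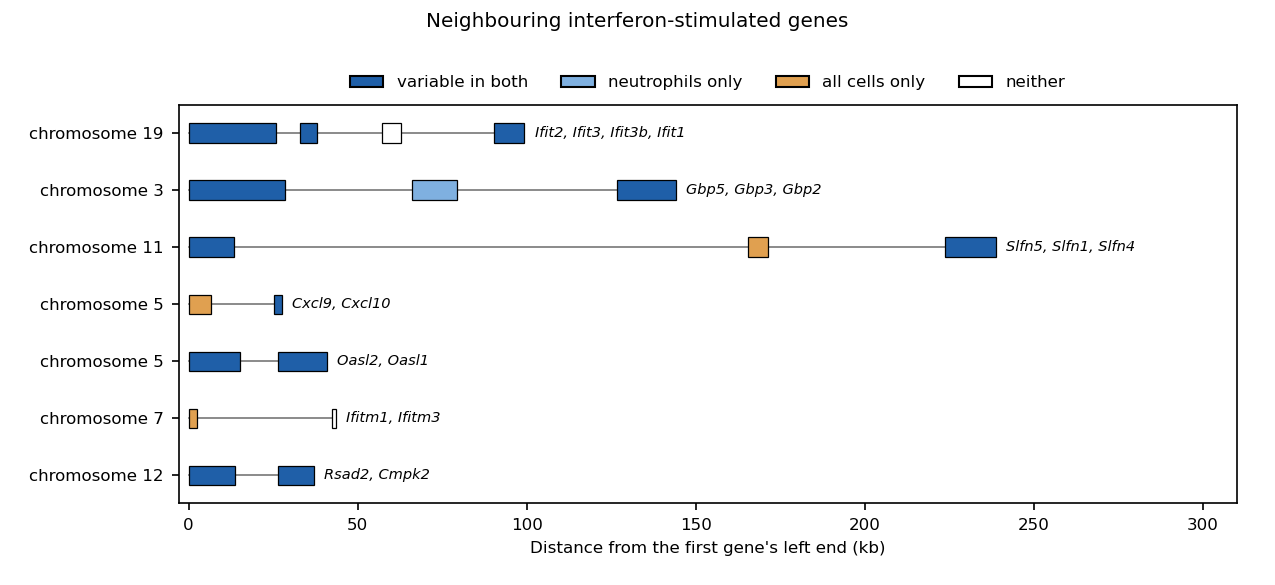
Each line is 1 of the 7 runs of neighbouring genes, with boxes to scale in kb from the left end of the run and gene names in that order. Dark blue boxes carried both flags, light blue neutrophils only, orange all cells only and white neither. Ifit3b is the only white box among the 4 Ifit genes.

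Ifit3 and Ifit3b are close copies, and their upstream sequences are shown because the genes differ in both flags and share long identical stretches. The 250 bases before each RefSeq start are given for Ifit3 (chr19:34583279-34583528) and Ifit3b (chr19:34607707-34607956), both on the plus strand of GRCm38.p6, with ISRE letters in capitals.
Ifit3: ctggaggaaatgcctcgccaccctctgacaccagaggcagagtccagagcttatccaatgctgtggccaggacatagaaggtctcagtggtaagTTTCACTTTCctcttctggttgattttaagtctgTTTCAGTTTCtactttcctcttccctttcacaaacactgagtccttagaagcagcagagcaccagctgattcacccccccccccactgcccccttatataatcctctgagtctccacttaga
Ifit3b: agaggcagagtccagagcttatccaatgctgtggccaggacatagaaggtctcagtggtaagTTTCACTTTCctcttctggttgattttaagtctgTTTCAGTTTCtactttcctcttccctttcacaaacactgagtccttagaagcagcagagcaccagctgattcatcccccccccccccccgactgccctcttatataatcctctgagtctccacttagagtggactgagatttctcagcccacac

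Both hold 2 ISRE matches with the same letters, at -156 and -122 in Ifit3 and at -188 and -154 in Ifit3b. The copied sequence is offset by 32 bases between the windows, so these positions depend on where each start is annotated. The longest identical stretch of the windows, which also take in the first 50 bases of each transcript, was 169 bases. Of the windows of 60 bases along the longest Ifit3 transcript, 47.0% also occurred in Ifit3b, and 40.8% of those of Ifit3b occurred in Ifit3. Reads that fall wholly in such stretches cannot be assigned to 1 gene, and how the authors counted them is not given in the sources used here, so the split of counts between Ifit3 and Ifit3b is uncertain. Its part in the flags was not tested. Where the shared windows lie along the transcripts was not computed, so their percents do not give the share of reads affected. Only Rtp4 (13.2%, with the overlapping gene model Gm45338) also exceeded 10%, and the other genes shared at most 7.18%, the value of Slfn4.

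Only 2 interferon-stimulated genes, Ifitm1 and Ifitm3, were among the 180 neutrophil cluster markers. That is 6.25% of the 32 listed, where 0.835% of all genes listed in neutrophils were markers. Neither was flagged as variable among neutrophils. None of the 20 genes with that flag was a marker, where 7.40% of all 1000 variable genes were. With 20 markers per cluster, a gene that is not listed may still differ between clusters.

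In the authors' deposited table, Ifitm1 was the 4th marker of the cluster named Migration 1, with a log2 fold change of 1.24 against all other neutrophils. It was detected in 96.1% of the 1087 Migration 1 cells and in 81.9% of the 9835 others. Weighted by cell numbers, this comes to 83.3% of all neutrophils, so Ifitm1 was widely detected and higher in this cluster rather than limited to it. The 3 markers ranked above it were Retnlg, Wfdc17 and Mmp8, a neutrophil collagenase gene.

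Ifitm3 was the 19th marker of NETosis 1 in the authors' deposited table, with a log2 fold change of 1.03. It was detected in 99.0% of the 979 NETosis 1 cells and in 59.2% of the 9943 others, or 62.8% of all neutrophils. Its marker score, the product of fold change and specificity, was 0.716, close to the 0.713 of Tkt in the last listed place, so Ifitm3 was just inside the list. The genes at the head of this cluster, Ltf, Lyz2, Camp and Ngp, mostly encode granule proteins.

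Depth differed between these clusters and the rest. NETosis 1 cells had a median of 8252 UMIs against 1754 in all other neutrophils, and Migration 1 cells 2176 against 1948. Detection of a gene rises with depth, so the shares for Ifitm3 compare cells of unequal depth. The specificity score follows from the shares of cells, so the marker score, rank and listing of Ifitm3 carry the same limit. The fold changes were scaled by depth, and the part of depth in the fold changes, shares and scores was not tested. The clusters held 763 shSCR and 216 shZdhhc17 cells (NETosis 1), and 774 and 313 (Migration 1), so the values rest mainly on control cells.

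Another gene of the family on chromosome 7, Ifitm6, belongs to the wider list. In the authors' deposited table it was the 6th marker of ECM Remodeling, with a log2 fold change of 2.06 and detection in 99.8% of cells against 43.1% of other neutrophils. The median depth of ECM Remodeling cells was 4667.5 UMIs against 1797 in other neutrophils. Each of the 3 Ifitm genes was listed for a different cluster. No gene was listed for more than 1 cluster, as the 180 markers are all different genes. How often 3 genes would fall in different clusters was not computed. In the authors' deposited table, Cd274 was the 12th marker of Hypoxia/Angiogenesis (log2 fold change 2.62, detected in 41.9% of cells against 8.62%), whose cells had a median of 1159 UMIs against 2864 in the others. The clusters named Inflammation, Migration 2, NETosis 2, Early-Stage 1 and Early-Stage 2 had no marker from these genes or the wider lists. Over all 9 clusters together, 0.835% of all genes listed in neutrophils were markers. A single cluster may therefore hold none from lists of this size, whatever its interferon response.

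**Figure D4:**
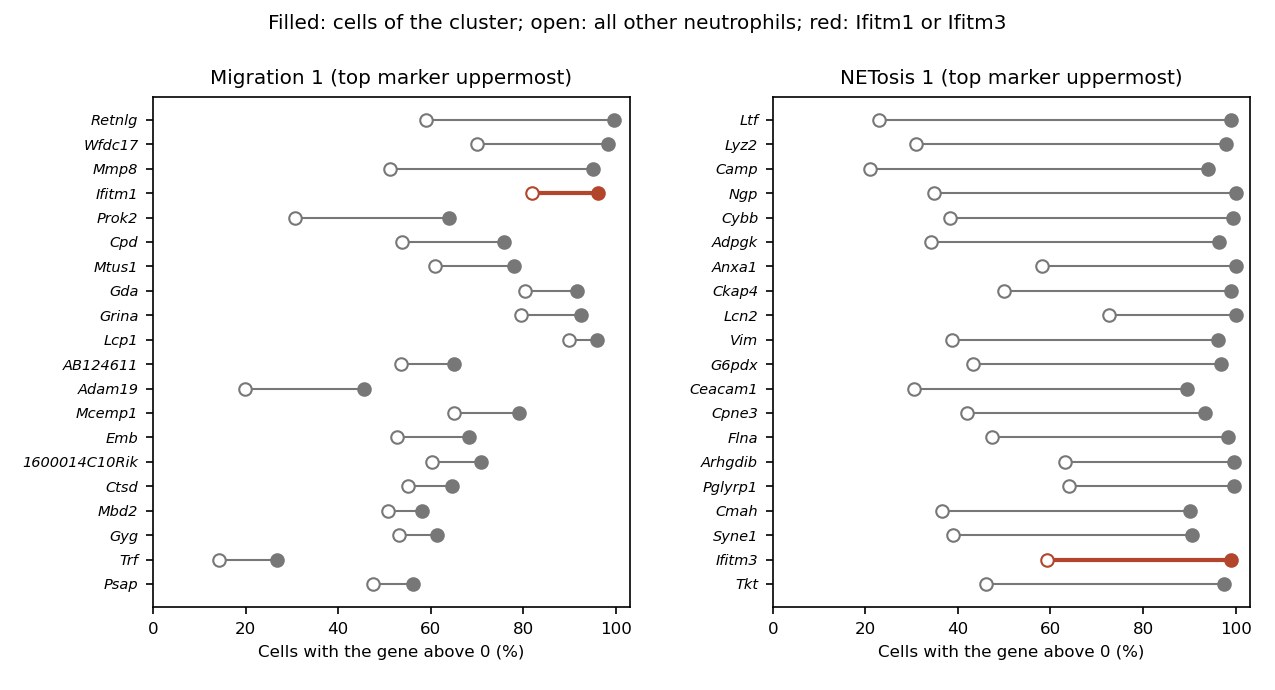
Each line is 1 of the 20 markers of Migration 1 (left) and NETosis 1 (right), in rank order from the top. Filled circles give the percent of cells of the cluster in which the gene was above 0 and open circles that of all other neutrophils. Ifitm1 (red, left) goes from 81.9% to 96.1%, and Ifitm3 (red, right) from 59.2% to 99.0%.

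The sequence near the starts was compared with the flags. RefSeq windows from 250 bases before to 50 after a start were found for 30 of the 34 genes, 36 windows in all. The letters GAAANNGAAA, searched on both strands, were in 16 of these 36 windows (44.4%) and in 3.44% of all 32851 windows. By gene, 16 of 30 (53.3%) had a match, where 3.99% of all 27025 genes with a window did. These were Ifih1, Ddx58, Stat2, Isg15, Ifit1, Ifit3, Ifit3b, Oas3, Rsad2, Ifitm3, Bst2, Gbp2, Gbp3, Gbp5, Slfn5 and Cxcl10. The Slfn5 match runs into a stretch of A, and those of Ifit3 and Ifit3b lie in copied sequence. The GAS letters TTCNNNGAA, which read the same on both strands, were in 6 windows (16.7%), those of Irf1, Ifit2, Isg20, Ifitm3, Bst2 and Gbp5, and in 8.30% of all windows. Neighbouring ISRE matches overlap in Isg15, Gbp3 and Bst2, and ISRE and GAS matches share letters in Ifitm3 and Bst2. A match is a string of letters, and binding was not measured.

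Among these genes, ISRE letters were about as frequent with the neutrophil flag as without it. Of 18 genes with a window that were variable among neutrophils, 10 (55.6%) had a match, as did 6 of the 11 that were listed and not variable (54.5%). For all cells the counts were 7 of 15 (46.7%) and 9 of 15 (60%). Oasl1, Oasl2, Cmpk2 and Slfn4 carried both flags and had neither motif in these windows, while Ddx58, Stat2 and Oas3 had an ISRE match and neither flag.

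Over all genes with a window, 48 of 794 variable among neutrophils (6.05%) and 526 of 14072 not variable (3.74%) had ISRE letters. Without the 34 genes and the other interferon-induced genes, the shares were 4.05% and 3.55%. Among the other interferon-induced genes 30 of 66 (45.5%) had a match. The 24 matches near the 34 genes began between -222 and 33 relative to the start, with a median of -94.5.

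**Figure D5:**
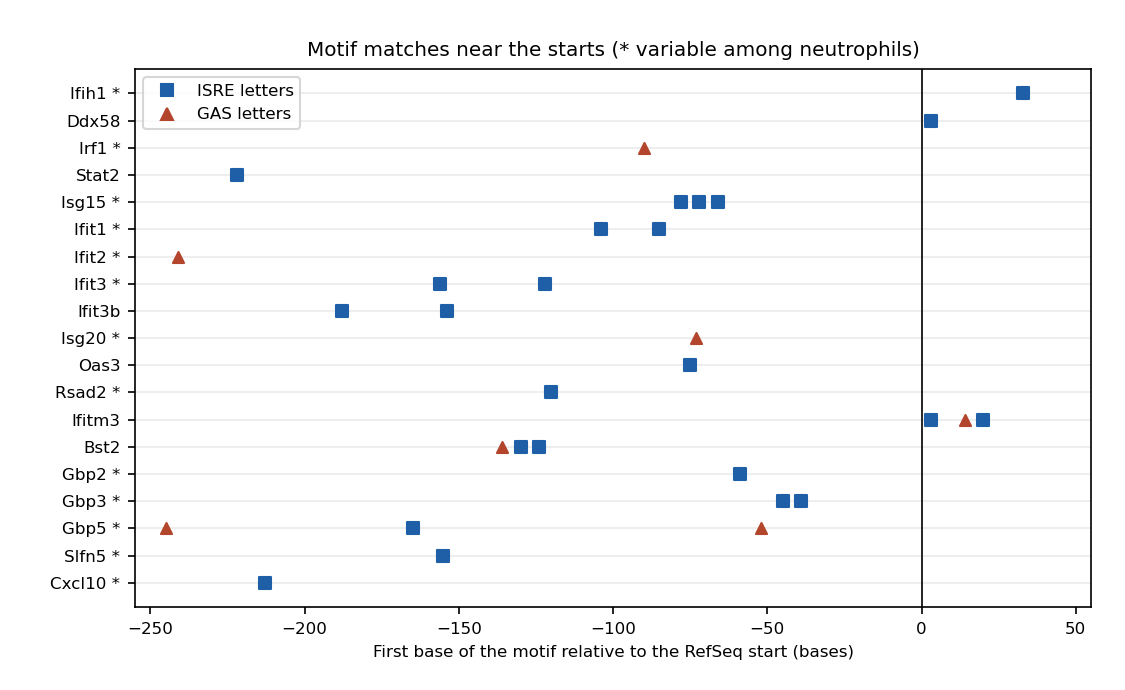
Each line is 1 of the 19 genes with a match, and the horizontal axis is the distance in bases of the first motif letter from the RefSeq start (vertical line). Blue squares are ISRE letters and red triangles GAS letters, and an asterisk marks genes variable among neutrophils. Most ISRE squares lie before the start, and those of Ifih1, Ddx58 and Ifitm3 lie after it.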

How the data were processed

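Single-cell libraries of liver metastases were made on BD Rhapsody, 1 pooled library per group. Per the file headers, the authors corrected counts for ambient RNA, clustered the cells and named them from markers. Seurat 4.1.0 is listed in the submitters' processing notes, and which tool removed the ambient signal is not given in the sources used here. For each cell the authors deposited UMI and gene counts, and the percent of mitochondrial UMIs, which was not needed. In the deposited marker table, log2 fold changes come from Seurat's Wilcoxon method on log2 counts per 10000 (pseudocount 1), according to the deposited column descriptions, beside the fraction of cells with the gene and the authors' scores. Fractions are printed as percent.

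The genes were matched by exact symbol with Python 3.11.15 and pandas 2.3.3. Counts were set beside the same count over all listed genes. With 1 library per group and no value per gene and cell, no test was made and no p-value is given. Motif search was tested on simulated windows. Positions are from GENCODE M21, whose build (GRCm38) is that of the files. Members and lists were chosen with earlier results of these data known. All 34 genes are named, as are flagged or marker genes of the wider lists and receptor and signal transduction genes, except 1 gene that is not reported here. Planned levels by cell type and shares of interferon-high cells were not computed.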

Additional observations from a re-analysis of the deposited data

How the results depend on the processing

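Over 5 settings the share variable among all cells was between 31.8% and 46.9%, and among neutrophils between 61.9% and 62.5%. The lowest values, 31.8% and 61.9%, count each run of neighbouring genes once, and no background was computed for runs. Counted by gene, the shares were 45.5% to 46.9% and 62.1% to 62.5%. With only protein-coding genes as background, 4.66% and 5.83% of genes were variable. Older and newer symbols added no gene to the 33. A log2 fold change of at least 1 kept 2 markers, and adding the other interferon-induced genes gave 4, because more genes were looked up. Leaving out the 3 genes that share more than 10% of their transcript windows with other genes gave 46.7% and 62.1%. A shorter ISRE of 9 letters matched 18 of 30 genes in place of 16, and 9.76% of all genes with a window in place of 3.99%. The last 2 settings were added after the data were seen. Alternatives for levels and interferon-high cells were not run, since no expression per cell was used. No paired analysis was possible because each group has 1 library and no result comes from a test. Flags carry no depth, so a gene without one may vary below what the depth shows.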
